A study of Mus musculus with 4 samples.

Results

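The Dlx and Msx genes are 9 homeobox genes of the mouse, Dlx1 to Dlx6 and Msx1 to Msx3, and their H3K27me3 was examined in yolk sac (YS) erythro-myeloid progenitors (EMPs). They were chosen by name, 9 of 21938 protein-coding genes, together with every H3K27me3 peak inside these genes or within 20 kb of them. EMPs are the transient blood progenitors that the YS makes before the definitive stem cells take over, and the study asked where the Polycomb enzyme Ezh2 leaves its mark in them. CUT&RUN, which cuts out and sequences the DNA around an antibody bound in intact nuclei, was done on EMPs sorted at E10.5 from C57BL/6 embryos. The series held 4 libraries, an IgG and an H3K27me3 library from 500 EMPs and the same from 15000 EMPs, so that each group had 1 library. The genotype label, the same for all 4 libraries, names Ezh2fl/fl, Tie2-Cre+/+ and wild type together. The EMPs were taken to be wild type, which is how the study describes them. Tie2-Cre is active in endothelium and in the blood cells that arise from it.

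H3K27me3, trimethylation of lysine 27 of histone H3, is placed by Polycomb repressive complex 2 and lies in broad domains over developmental genes that a cell keeps silent. Dlx genes, relatives of the fly gene Distal-less, stand in pairs whose members point towards each other, and the space between them holds enhancers that both members use. Dlx and Msx proteins pattern the forebrain, the branchial arches, the teeth, the limbs and the skull, downstream of signals such as BMP, and have no established part in YS blood formation. Dlx1 and Dlx2 direct the development of forebrain interneurons, Dlx5 and Dlx6 that of the lower jaw and the limb, and Dlx3 that of the placenta, hair and teeth, with Dlx4 as its neighbour. Msx1 acts in teeth and palate, Msx2 in the skull and hair, and Msx3 in the dorsal neural tube.

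The peak lists differed as a whole, and this bears on every comparison between them. The 500 EMP list held 10223 peaks of 363 bp median width over 5.95 Mb, and the 15000 EMP list 15282 peaks of 770 bp over 24.0 Mb. The lists used here give positions with no height, p-value or read count, so a peak was present or absent and the files do not show the depth. Per the supplement, fewer reads were sequenced for the 500 EMP library, and a much smaller share of them aligned. Cell number could not be told apart from depth, alignment rate, the instrument, the read length (76 bp and 59 bp), the PCR cycles (17 and 16) and the p-value limit of the peak caller (0.01 and 0.05, for 500 and 15000 EMPs). No spread between replicates exists and no test between the libraries was possible, so the order of the levels below has no error attached. Of 10 EMP and blood markers, such as Kit, Runx1 and Itga2b, 0 had a peak within 3 kb in either library (95% Wilson interval 0 to 27.8%), and the same was true of 7 housekeeping genes. Of 8 endothelial markers, 1 had a peak at 500 EMPs and 3 at 15000 EMPs (Sox17, Sox18 and Kdr). Over all protein-coding genes the shares with such a peak were 9.78% and 16.8%, which lie inside the intervals of these short lists.

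The sequence before the start of a gene is shown here for the 3 members whose RefSeq promoter lies before the annotated gene (1 base of Msx3 was left out), because the libraries differed at the starts. RefSeq (GRCm38.p6) promoters were found for 5 of the 9 members: Dlx1, Dlx2, Msx1, Msx2 and Msx3. Each sequence runs 5′ to 3′ on the strand of its gene, up to the start site, and capitals mark every CG, the dinucleotide (CpG) that is dense in the CpG islands where Polycomb complexes gather. The Dlx2 sequence is chr2:71546755-71547004 (minus strand), the Msx1 sequence chr5:37824586-37824835 (minus strand) and the Msx3 sequence chr7:140049090-140049338 (minus strand).
Dlx2: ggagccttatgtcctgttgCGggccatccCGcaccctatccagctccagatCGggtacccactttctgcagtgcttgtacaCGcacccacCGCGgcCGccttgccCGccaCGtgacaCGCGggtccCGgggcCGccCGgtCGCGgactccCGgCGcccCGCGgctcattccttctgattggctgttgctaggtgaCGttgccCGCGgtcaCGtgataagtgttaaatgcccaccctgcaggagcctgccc
Msx1: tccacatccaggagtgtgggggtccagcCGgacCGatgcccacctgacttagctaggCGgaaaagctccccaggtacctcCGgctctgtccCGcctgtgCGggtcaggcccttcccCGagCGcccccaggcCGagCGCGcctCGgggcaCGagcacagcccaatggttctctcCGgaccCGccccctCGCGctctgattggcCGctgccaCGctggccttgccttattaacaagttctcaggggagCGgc
Msx3: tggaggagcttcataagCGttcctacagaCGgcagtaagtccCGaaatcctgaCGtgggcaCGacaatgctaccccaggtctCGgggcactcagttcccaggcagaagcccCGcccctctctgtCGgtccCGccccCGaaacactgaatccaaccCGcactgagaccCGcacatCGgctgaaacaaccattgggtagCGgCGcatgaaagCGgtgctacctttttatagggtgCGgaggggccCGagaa
CG reads the same on both strands and was counted 24, 20 and 18 times in these sequences of Dlx2, Msx1 and Msx3. The median over 32851 RefSeq promoters was 6 in 250 bases, and 92.1% of them held at least 1 CG. All 250 bases of the Dlx2 sequence, all 250 of Msx1 and all 249 of Msx3 lay in 15000 EMP peaks. At 500 EMPs, 0 bases of Dlx2 and 0 of Msx3 lay in a peak, whereas at Msx1 the 169 bases farthest from the start did.

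All 9 genes carried H3K27me3 in both libraries. Each had at least 1 peak within 3 kb by the distance column of the authors' tables, against 9.78% of all protein-coding genes at 500 EMPs and 16.8% at 15000 EMPs. A total of 72 rows at 500 EMPs and 33 at 15000 EMPs named a member. Within 20 kb of the 6 loci (3 Dlx pairs and 3 Msx genes) lay 85 peaks over 83089 bp at 500 EMPs and 31 peaks over 146356 bp at 15000 EMPs. The covered length was thus 1.76 times larger at 15000 EMPs, while over the whole lists it was 4.03 times larger. The same loci were seen in more and shorter pieces at 500 EMPs.

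Coverage was measured in a window of 3 kb either side of the annotated start, so that genes of different length could be compared. Among the Dlx genes, Dlx1 (chr2:71528113-71533981) had 46.0% of its window in peaks at 500 EMPs and 99.3% at 15000 EMPs. Dlx2 (chr2:71543408-71546754) had 26.4% and 84.7%, the smallest share of the 9 genes at 500 EMPs. Joining 500 EMP peaks up to 1 kb apart gave 46.2% for Dlx2, and joining those up to 3 kb apart gave 100% for Dlx2 and 79.8% for Dlx1. After the latter joining Dlx3 (59.4%) was the lowest of the 9 genes. In windows of 5 kb either side at 500 EMPs, Msx3 (29.5%) stood below Dlx2 (30.5%). Dlx3 (chr11:95120119-95125296) had 47.8% and 68.5%, the smallest share at 15000 EMPs. At 15000 EMPs the window of Dlx1 was thus covered but for a small part, while a larger part of the Dlx2 window and a still larger part of the Dlx3 window held no peak. Dlx4 (chr11:95140447-95146263) had 69.5% and 100%. Dlx5 (chr6:6877805-6882085) had 44.3% and 87.1%. Dlx6 (chr6:6863334-6868568) had 72.0% and 100%. Dlx4 and Dlx6 thus had the most covered windows of the Dlx genes in both libraries at this window size. In windows of 1 kb either side at 500 EMPs, Dlx1 (65.9%) stood above Dlx4 (50.7%) and Dlx6 (47.5%), and at 15000 EMPs 5 of the 6 Dlx genes, Dlx3 among them, were covered in full and Dlx2 to 83.1%.

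The Msx genes stand alone on 3 chromosomes. Msx1 (chr5:37820485-37824583) had 75.6% of its window in peaks at 500 EMPs, the largest share of the 9 genes there, and 92.4% at 15000 EMPs. In windows of 1 kb either side it had 48.7% at 500 EMPs, and Msx2 had the largest share (71.2%). Msx2 (chr13:53466884-53473074) had 67.2% and 95.9%. Msx3 (chr7:140046157-140049089) had 46.0% and 100%. Its value at 500 EMPs was 29.5% in windows of 5 kb either side and 100% with peaks up to 1 kb or 3 kb apart joined. The median of the 9 genes was 47.8% at 500 EMPs and 95.9% at 15000 EMPs, beside a mean over all protein-coding genes of 1.95% and 8.13%. Most genes had no peak in the window, and among those with any cover (2177 and 3728 genes) the median was 13.1% and 45.7%. At least 50% of the window was covered in 4 of 9 members at 500 EMPs (0.862% of all genes) and in 9 of 9 at 15000 EMPs (7.83% of all genes). The whole window was covered in 0 of 9 members at 500 EMPs (0.0182% of all genes) and in 3 of 9 at 15000 EMPs, Dlx4, Dlx6 and Msx3 (0.634% of all genes).

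**Figure D1:**
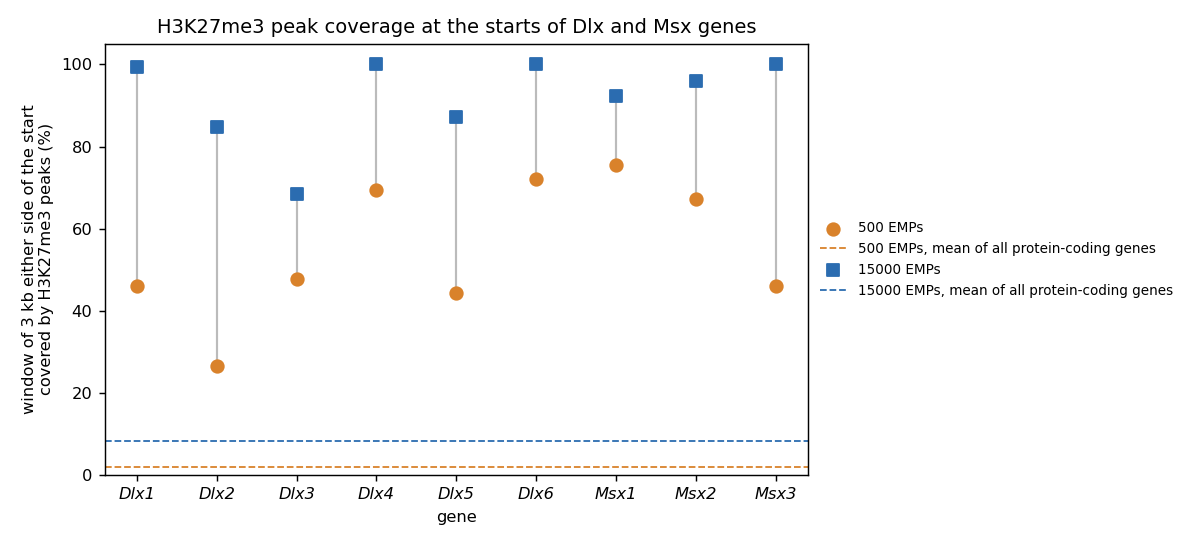
Percent of the window of 3 kb either side of the annotated start that lay in H3K27me3 peaks (y axis) for each gene (x axis), with circles for the 500 EMP library, squares for the 15000 EMP library, a grey line joining the values of 1 gene and dashed lines for the mean of all protein-coding genes in each library. All 9 genes lie above both means, from 26.4% (Dlx2) to 75.6% (Msx1) at 500 EMPs and from 68.5% (Dlx3) to 100% at 15000 EMPs.

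The peaks ran through the gene bodies as well. At 15000 EMPs, 7 of 9 members were covered from end to end (0.643% of all genes), and the other two were Msx2 with 96.0% and Dlx3 with 89.2% of the gene in peaks. At 500 EMPs, 0 of 9 were covered from end to end (0.0137% of all genes), and the share ranged from 26.7% for Dlx2 and 32.5% for Msx3 to 75.3% for Dlx4 and 87.4% for Dlx5, with a median of 58.4%. Over all protein-coding genes the median was 0 in both libraries.

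The 3 Dlx pairs differed in how the mark lay between the genes. The Dlx1/Dlx2 pair spans 18642 bp from start to start. At 500 EMPs, 12 peaks covered 51.9% of this span, and at 15000 EMPs a single peak of 21910 bp (chr2:71525154-71547063) covered all of it. The Dlx5/Dlx6 pair spans 18752 bp. At 500 EMPs, 9 peaks covered 74.9% of it, the most of the 3 pairs, and at 15000 EMPs a single peak of 28011 bp (chr6:6855817-6883827) covered all of it. These peaks ranked 12 and 3 by width among the 15282 peaks of the 15000 EMP list. The Dlx3/Dlx4 pair spans 26145 bp, and 7 peaks covered 38.6% of it at 500 EMPs and 7 peaks covered 55.3% at 15000 EMPs. Dlx1/Dlx2 and Dlx5/Dlx6 were thus each 1 domain at 15000 EMPs, and Dlx3/Dlx4 was not.

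The pairs differed in the same way in the space between the genes, where the shared enhancers of Dlx pairs are known to lie. Between Dlx1 and Dlx2 (9426 bp), 60.0% lay in peaks at 500 EMPs and 100% at 15000 EMPs. Between Dlx5 and Dlx6 (9236 bp) it was 69.5% and 100%. Between Dlx3 and Dlx4 (15150 bp) it was 17.8% and 26.6%, and a stretch of 8846 bp at 500 EMPs and 7510 bp at 15000 EMPs held no peak at all. On its left stood the domain of Dlx3 and on its right that of Dlx4, whose peak of 14492 bp (chr11:95138600-95153091) ranked 58 by width. Joining peaks up to 3 kb apart left Dlx3/Dlx4 in 2 pieces at 15000 EMPs and in 3 at 500 EMPs, whereas each of the other pairs became 1 piece in both libraries.

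**Figure D2:**
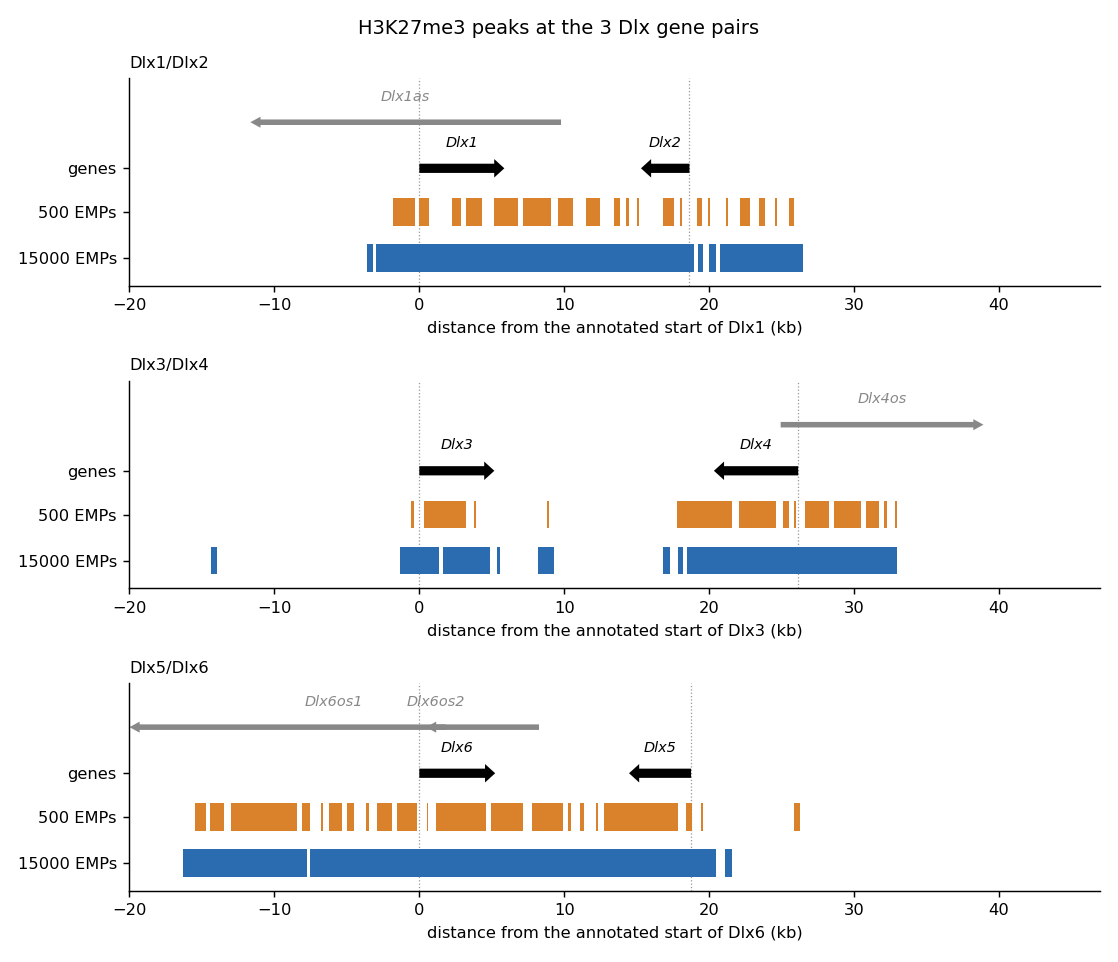
Peaks within 20 kb of each Dlx pair (orange, 500 EMPs, and blue, 15000 EMPs), drawn to scale against the distance in kb from the start of the left gene (x axis). Black arrows are the Dlx genes and grey arrows the RNA genes on the opposite strand, in the direction of transcription (Dlx6os1 runs on past the left edge), and dotted lines mark the starts of the Dlx genes. At 15000 EMPs 1 peak spans Dlx1/Dlx2 and 1 spans Dlx5/Dlx6, while 7510 bp between Dlx3 and Dlx4 hold no peak.

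Convergent gene pairs were counted over the whole annotation as the background of the Dlx pairs. There were 2643 pairs of neighbouring protein-coding genes that point towards each other with at most 20 kb between them. A single peak held the whole span of 0 of them at 500 EMPs (0%) and of 2 at 15000 EMPs (0.0757%), and these 2 were Dlx1/Dlx2 and Dlx5/Dlx6. With peaks up to 1 kb apart joined, the counts were 1 at 500 EMPs and 4 at 15000 EMPs. Joining peaks up to 3 kb apart gave 2 and 5. Both starts lay in peaks in 1 pair at 500 EMPs (0.0378%), Scn8a/Gm47841, named after its values were seen. Its span of 177540 bp was covered to 2.96%, and no Dlx pair had both starts in peaks at 500 EMPs. At 15000 EMPs both starts lay in peaks in 28 pairs (1.06%), all 3 Dlx pairs among them. At least 50% of the space between the genes was covered in 10 pairs at 500 EMPs (0.378%) and in 37 at 15000 EMPs (1.40%), and Dlx1/Dlx2 and Dlx5/Dlx6 were among these in both libraries. Ranked by the covered share of the span, Dlx5/Dlx6 stood at place 1, Dlx1/Dlx2 at 3 and Dlx3/Dlx4 at 6 at 500 EMPs, and Dlx3/Dlx4 at 17 at 15000 EMPs.

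Beyond the pairs the mark reached further on one side than on the other. In the 20 kb upstream of Dlx6, 10896 bp were covered at 500 EMPs and 16051 bp at 15000 EMPs, compared with 626 bp and 2227 bp upstream of Dlx5. Upstream of Dlx4 it was 4716 bp and 6828 bp, compared with 198 bp and 1779 bp upstream of Dlx3. Upstream of Dlx2 it was 2311 bp and 6898 bp, compared with 1473 bp and 3347 bp upstream of Dlx1. The covered length beyond each pair was therefore lopsided in the same direction in both libraries. Within each pair the window at the start was more covered in one gene than in its partner. The more covered genes were Dlx1, Dlx4 and Dlx6, which form one of the subgroups of the family by sequence. Their partners of the other subgroup were Dlx2, Dlx3 and Dlx5. In Dlx1/Dlx2 the measures went opposite ways, since Dlx2 had more cover in the 20 kb upstream. The order by window held in 6 of 6 comparisons (3 pairs in 2 libraries), by 12.9 to 31.5 percentage points at 15000 EMPs and 19.7 to 27.7 at 500 EMPs. With windows of 1 kb either side it held in 4 of 6, with 2 equal, and with windows of 5 kb in 5 of 6, Dlx1/Dlx2 at 15000 EMPs being the other way round. With peaks up to 3 kb apart joined it held in 4 of 6, with 1 equal and Dlx1/Dlx2 at 500 EMPs reversed (79.8% for Dlx1 and 100% for Dlx2), and over gene bodies in 3 of 6, with 2 equal and 1 the other way round. The 2 libraries measured the same 3 pairs, so the 6 comparisons are not independent. The pattern by subgroup was noticed in the values and was not tested.

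The Msx domains reached mainly upstream at Msx1 and Msx3. With peaks up to 3 kb apart joined, the Msx1 domain extended 14729 bp upstream of the start and 3032 bp past the 3′ end at 500 EMPs, and 14842 bp and 5674 bp at 15000 EMPs. The Msx2 domain extended 4788 bp upstream and 5636 bp past the 3′ end at 500 EMPs, and 5349 bp and 6155 bp at 15000 EMPs, and so lay about evenly around the gene. The Msx3 domain extended 14305 bp upstream and 2116 bp past the 3′ end at 15000 EMPs. At 500 EMPs the domain on Msx3 ended 3013 bp upstream, and a further group of peaks followed after a break. In all, 6392 bp of the 20 kb upstream of Msx3 were covered at 500 EMPs and 12174 bp at 15000 EMPs. The upstream limits of the Msx1 and Msx2 domains were close to each other in the libraries, although the covered length of these loci went from 12372 to 22915 bp and from 9079 to 17603 bp.

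**Figure D3:**
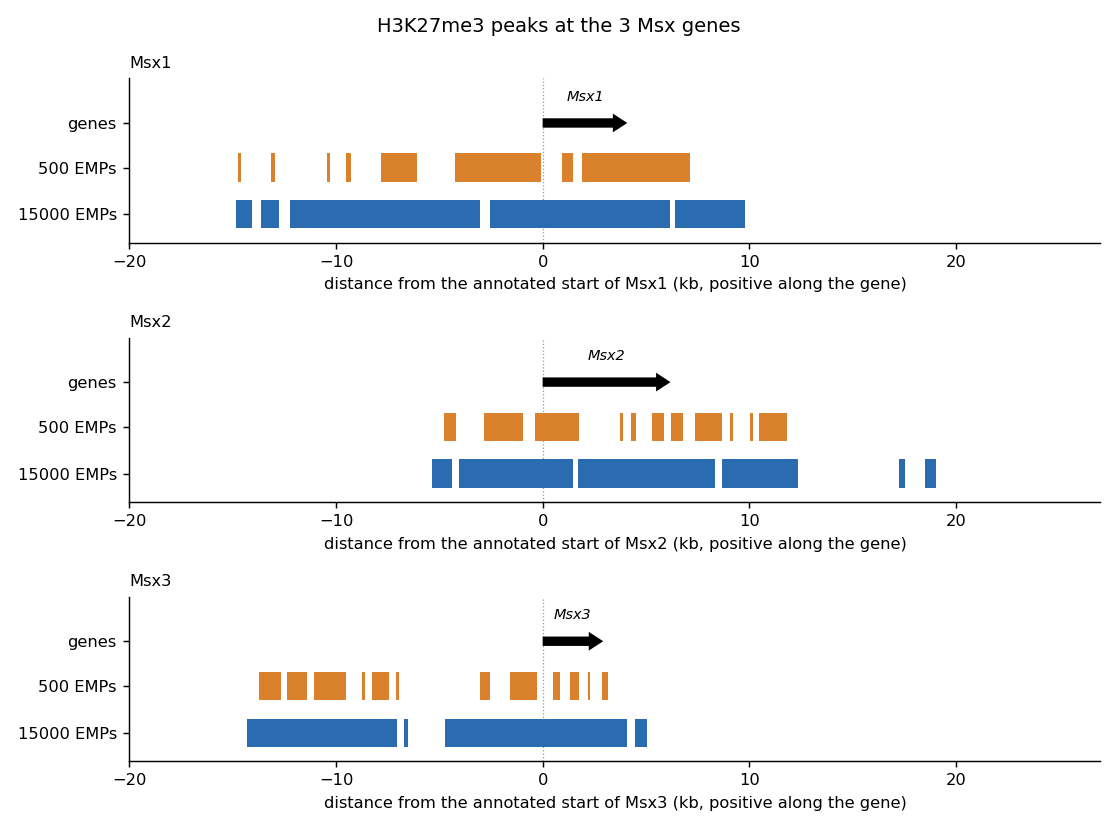
Peaks within 20 kb of each Msx gene (orange, 500 EMPs, and blue, 15000 EMPs), drawn to scale against the distance in kb from the start (x axis), with each gene turned to read from left to right and a dotted line at its start. The domains of Msx1 and Msx3 reach 14842 bp and 14305 bp upstream at 15000 EMPs, and that of Msx2 5349 bp.

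The libraries differed at the starts themselves. At 15000 EMPs the annotated starts of 9 of 9 members lay inside a peak, against 8.63% of all protein-coding genes. At 500 EMPs the starts of 2 of 9, Dlx5 and Msx2, lay inside a peak, against 1.40% of all genes. At the other 7 genes the start fell into a gap between peaks of 324 bp (Dlx1), 626 bp (Dlx4), 684 bp (Dlx6), 696 bp (Dlx3), 786 bp (Msx3), 1011 bp (Dlx2) and 1027 bp (Msx1). A peak lay 8 bp (Dlx1) to 497 bp (Dlx2) from each of these starts, so that they were flanked rather than free of the mark. With 500 EMP peaks up to 1 kb apart joined, 7 of 9 starts lay inside, and with those up to 3 kb apart joined 9 of 9. The starts of other annotated transcripts of Dlx2, Dlx4, Dlx6, Msx1 and Msx3 lay outside 500 EMP peaks as well, while 2 of the 5 further starts of Dlx1 lay inside.

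A dip near the start was also seen over all genes. Of the 1893 protein-coding genes whose start lay in a 15000 EMP peak, 287 (15.2%) had it in a 500 EMP peak as well, beside 2 of 9 (22.2%) here. Among the 2177 genes with a 500 EMP peak within 3 kb of the start, 14.1% had a peak at the start itself, compared with 23.9% at 500 bp upstream and 26.6% at 1000 bp downstream, and the low point was 12.3% at 200 bp downstream. At 15000 EMPs 50.8% of 3728 such genes had a peak at the start, compared with 55.7% and 68.8%. For the 9 members, 7 had a 500 EMP peak at 500 bp upstream, 2 at the start and 5 at 1000 bp downstream, whereas at 15000 EMPs the numbers were 8, 9 and 9.

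**Figure D4:**
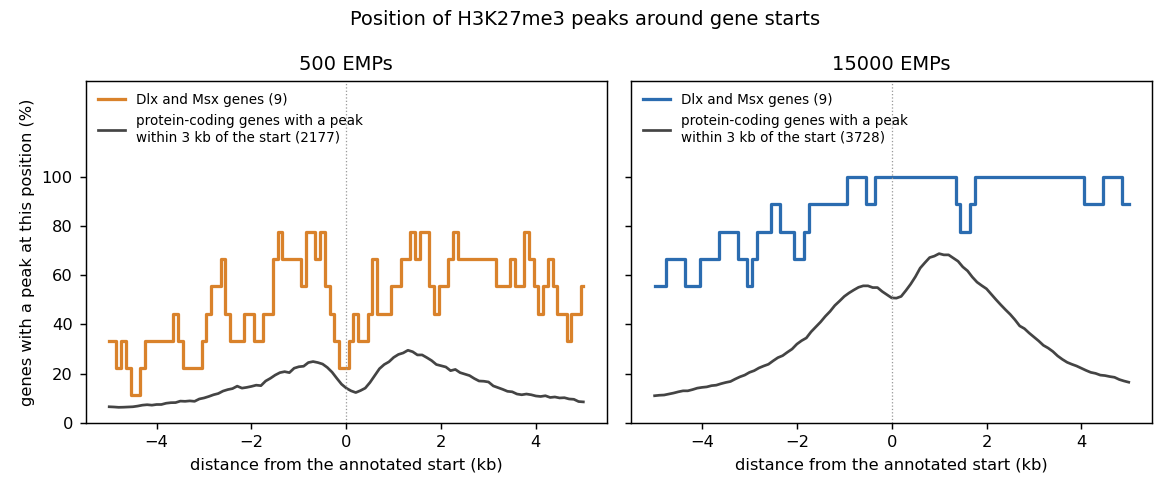
Share of genes (y axis, percent) that had an H3K27me3 peak at each position from 5 kb upstream to 5 kb downstream of the annotated start (x axis, kb) in the 500 EMP library (left) and the 15000 EMP library (right), for the 9 Dlx and Msx genes (coloured line) and for all protein-coding genes with a peak within 3 kb of the start (grey line). At 500 EMPs both lines dip near the start, with 2 of 9 members and 14.1% of genes covered at the start and a low point of 12.3% of genes at 200 bp downstream, and at 15000 EMPs 9 of 9 members and 50.8% of genes are covered there.

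CpG content was set beside these gaps. In the 1001 bp around the start the members held 31 (Dlx1), 72 (Dlx2), 60 (Dlx3), 59 (Dlx4), 55 (Dlx5), 63 (Dlx6), 66 (Msx1), 47 (Msx2) and 75 (Msx3) CpGs, against a median of 41 over all protein-coding genes. The share of all genes with at least as many ranged from 20.7% (Msx3) to 56.9% (Dlx1). Genes with the start in peaks of both libraries (287) had a median of 44, and those with the start in a 15000 EMP peak alone (1606) a median of 53. Dlx5 and Msx2, the members with the start covered in both, stood at 55 and 47, and 6 of the 7 others above them, with Dlx1 as the exception at 31. Over the 6 loci, bases covered in both libraries held 2.40 CpGs per 100 bp, those covered at 15000 EMPs alone 2.69, those covered at 500 EMPs alone 3.40 and those covered in neither 1.21. Around all protein-coding gene starts the same values were 2.46, 3.10, 2.88 and 1.72. The order of the first pair of classes was reversed at Msx1 (2.96 in both libraries and 2.31 at 15000 EMPs alone) and at Msx2 (2.93 and 2.09). Whether base composition had a part in the gaps at 500 EMPs was not tested.

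Sharing of peaks between the libraries was counted by an overlap of at least 1 bp. Of the 85 peaks at 500 EMPs, 84 (98.8%, Wilson interval 93.6 to 99.8%) overlapped a 15000 EMP peak, beside 91.2% of all 10223 peaks. The other peak was 432 bp wide and lay upstream of Dlx5. In the reverse direction, 22 of 31 (71.0%, 53.4 to 83.9%) overlapped a 500 EMP peak, beside 32.2% of all 15282 peaks. With an overlap of at least 50% of the peak required, the reverse share was 32.3%, and with 50% of both peaks the shares were 2.35% at 500 EMPs and 6.45% at 15000 EMPs. The 9 peaks with no overlap at 15000 EMPs were 189 to 573 bp wide. Neighbouring peaks of 1 domain are not independent, so the intervals cover counting error only.

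The next protein-coding genes on each side were set beside all genes. Of the 12 genes that flank the 6 loci, 2 had a peak in the window at 500 EMPs and 3 at 15000 EMPs, beside 9.92% and 17.0% of all genes. Their starts lay in a peak in 0 of 12 at 500 EMPs and 2 of 12 at 15000 EMPs, beside 1.40% and 8.63% of all genes. The 2 were Itga3, an integrin subunit gene beside Dlx3, with 10.6% and 81.5% of its window covered at 500 and 15000 EMPs, and Caly, beside Msx3, with 4.48% and 57.8%. Drd1, a dopamine receptor gene far from Msx2, had 0 and 22.0%. Metap1d, Itga6, Tac4, Sem1, Sdhaf3, Cytl1, Stx18, Sptlc1 and Zfp511 had no peak in their windows in either library. The 3′ end of Metap1d lies 2918 bp before the start of Dlx1, inside the limits of the Dlx1/Dlx2 domain at 15000 EMPs. RNA genes on the strand opposite to a Dlx gene start inside each pair. The starts of Dlx1as, Dlx6os1 and Dlx6os2 lay in peaks of both libraries and that of Dlx4os in a peak at 15000 EMPs alone. CUT&RUN peaks have no strand, so the mark at a Dlx gene and at its partner on the opposite strand cannot be told apart.

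Genes of the pathways around Dlx and Msx were counted from lists that held no member. Over all protein-coding genes, 9.78% had a peak within 3 kb at 500 EMPs and 16.8% at 15000 EMPs. Of 9 signals that induce or restrict these genes, 7 had a peak within 3 kb at 500 EMPs and 8 at 15000 EMPs, with a median window coverage of 32.7% and 81.9%. Wnt3a and Fgf8 were the most covered at 15000 EMPs (96.0% and 94.7%), and Ednra, the endothelin receptor of the branchial arches, had 0 in both libraries. Of 14 transcription factors that act beside or upstream of them, 13 and 14 had a peak. Pax3, of the dorsal neural tube and neural crest, had its whole window covered at 15000 EMPs, and Eya1 7.15%. Of 14 targets and partners, 10 and 11 had a peak. Lhx6 and Gad2, which act in interneurons, and the tooth and jaw factor Barx1 had the whole window covered at 15000 EMPs, while Gad1, like Gad2 a GABA synthesis gene, and the bone factors Runx2 and Sp7 had 0.

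Among other homeobox families the Dlx and Msx genes did not stand apart by presence. Of 25 matched NK-like homeobox genes, the wider class to which Dlx and Msx belong, 22 had a peak at 500 EMPs and 24 at 15000 EMPs. The shares of all protein-coding genes were 9.78% and 16.8%. Median windows of the NK-like genes were 43.3% and 91.5%. Hhex, which acts in blood and endothelial progenitors, was the 1 without a peak at 15000 EMPs. All 7 Nkx2 genes and all 10 Lhx and Isl genes had a peak within 3 kb in both libraries. The Nkx2 genes had median windows of 60.0% and 94.5% and the Lhx and Isl genes 43.0% and 77.1%, beside 47.8% and 95.9% for the 9 members. Starts lay in 15000 EMP peaks in 6 of 7 Nkx2, 6 of 10 Lhx and Isl and 18 of 25 NK-like genes, compared with 9 of 9 members. At 500 EMPs they lay in peaks in 4 of 7, 3 of 10 and 6 of 25 of these genes, compared with 2 of 9 members, the smallest share of the 4 groups. Over all protein-coding genes, 1.40% of starts lay in 500 EMP peaks and 8.63% in 15000 EMP peaks. These families were described side by side and not tested against each other.

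The genes of most similar profile were sought by coverage in 1 kb bins over 10 kb on each side of the start in both libraries (40 values), compared with the median profile of the members. The closest non-members were Lhx6 (root mean square distance 22.3 percentage points), Gdnf (23.7), Otx1 (23.7), Pdx1 (23.8) and Ptf1a (24.0), against 70.2 for a gene with no peaks. The members themselves lay between 26.3 (Msx2, rank 12 by distance) and 53.8 (Msx3, rank 696). The 5 genes were picked as the closest of all non-members, so their smaller distances do not set the members apart from each other. The windows of the 5 genes were covered to 34.5% (Gdnf) to 77.5% (Lhx6) at 500 EMPs and to at least 94.3% (Pdx1) at 15000 EMPs.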

How the data were processed

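H3K27me3 peaks of 2 CUT&RUN libraries, 500 and 15000 EMPs, were analysed. The authors aligned reads to mm10 (GRCm38) with Bowtie2 2.2.1, called broad peaks per library with MACS2 2.1.2 and annotated them with ChIPpeakAnno. Their listing of commands names the other cell number under each p-value limit, and the lists were taken as labelled. The deposited peak lists and tables used here hold positions, gene symbols and distances in bp. Signal tracks, which the authors made with deepTools, were not analysed here. The 1-based positions used here were read from the peak lists. No IgG peak list was used here.

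Coverage was the share of bases in peaks, computed in Python 3.11.15 with numpy 2.4.6 on GENCODE vM21 genes. It was tested on simulated intervals. Peaks overlapped if they shared at least 1 bp. With 1 library per group no p-value was computed. The members and lists were chosen with earlier results of these data known. Named were the 9 members, RNA genes in their spans, flanking genes, convergent pairs held by 1 peak, the 5 most similar genes and up to 4 examples per list (more where tied). Alternatives were other windows, flanks and gene models, joined peaks and the omission of the shortest peaks.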

Additional observations from a re-analysis of the deposited data

How the results depend on the processing

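The values of the report were recomputed with 132 alternatives for 30 summary values, of which 103 stayed within 1.5 times the value given (for shares, within its Wilson interval) and 29 moved, and with 90 alternatives for 18 window values of single members, of which 82 stayed and 8 moved. Most of those that moved came from joining neighbouring peaks, mainly at 500 EMPs. With peaks up to 1 kb apart joined, member starts in peaks at 500 EMPs went from 2 to 7, the median window to 76.8%, the Dlx1/Dlx2 span to 79.9% and the space between them to 98.8%, and peaks at the loci to 21 (500 EMPs) and 11 (15000 EMPs). Convergent pairs with both starts in peaks became 7 and 46, and those held by 1 peak 1 and 4. With peaks up to 3 kb apart joined, starts went to 9, the median window, the median gene body, the Dlx1/Dlx2 span and the space between them to 100% at 500 EMPs, peaks at the loci to 10 and 9, covered bp at 500 EMPs to 134391, the share of 500 EMP peaks overlapping to 90.0%, and the space between Dlx3 and Dlx4 at 15000 EMPs to 50.4%. Convergent pairs with both starts in peaks became 13 and 60, and those held by 1 peak 2 and 5. With windows of 1 kb either side at 500 EMPs, Msx1 fell to 48.7% and Dlx6 to 47.5%, below Msx2 (71.2%), Dlx1 (65.9%), Msx3 (53.7%) and Dlx4 (50.7%), so the order of the genes depends on the window. Counting a peak within 1 kb of the start gave 9 of 9 at 500 EMPs. With pairs up to 50 kb apart, 3 had both starts in 500 EMP peaks. Requiring an overlap of 50% of both peaks left 2.35% of 500 EMP and 6.45% of 15000 EMP peaks shared, and 50% of the query peak left 32.3% of 15000 EMP peaks. The pieces at 500 EMPs and the gaps at the starts thus depend on the joining of peaks. These gaps were 324 to 1027 bp wide, so joining over 3 kb had to close all of them. No paired analysis was possible because each group had 1 library and no test was run. The files do not show the depth, which the study's reporting summary gives as lower for the 500 EMP library, with a lower alignment rate. The part of depth in the differences was not tested, and peak height was not analysed here.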

Other observations

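Other convergent pairs had most of their span in peaks, although no single peak held a whole span, and they were looked up after their values had been seen. Wnt1/Ddn, a Wnt ligand gene and a gene of kidney podocytes and neurons on chromosome 15, had 63.9% of the span from start to start in peaks at 500 EMPs, between Dlx5/Dlx6 (74.9%) and Dlx1/Dlx2 (51.9%), and 98.4% at 15000 EMPs. Oxt/Avp, the neighbouring genes of the hormones oxytocin and vasopressin on chromosome 2, had 96.6% at 15000 EMPs, and Cldn6/Cldn9, which encode tight junction proteins, had 94.1%.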
